A study of Arabidopsis thaliana with 12 samples.

Results

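Stw is a natural accession of Arabidopsis thaliana whose flowers, according to the study's methods, do not make saiginols, the phenylacylated flavonols it set out to explain. Floral total RNA of Stw was hybridized to 1 ATH1 array, and its transcript levels were set against those of 9 other untreated accessions, Col-0, Laer, Ws and Sap among the non-producers and C24, Cvi, Da, Rsch and RLD among the producers. Col-0 and C24 have 2 arrays each, which were averaged, and every other accession has 1, so that the series holds 12 arrays. A probe set was taken as set apart in Stw when its signal lay outside the range of the other 9 accessions and at least 4-fold from their median, on a scale of log2(signal + 16). This held for 14 of 22746 probe sets (0.0615%), of which 2 were higher (0.00879%) and 12 lower (0.0528%) in Stw. The balance rests on the constant of 16, since 99 were higher and 99 lower with a constant of 1. The rule picks the probe sets by the Stw signal itself, so their differences are a description without a test, and 1 array gives no error for Stw.

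The array titled Stw carries the ecotype Sap-0 in its label, and the array titled Sap carries RLD. The titles were used, and the label was not decided by the signals. Across probe sets, the Stw array correlated with the others at 0.947 (second C24 array) to 0.970 (Laer and Rsch), with 0.966 for Sap. It differed at least 4-fold from Sap in 52 probe sets, within the 48 (Rsch) to 123 (second C24 array) found against the other arrays. The Col-0 duplicates were at least 4-fold apart in 8 probe sets (0.0352%) and the C24 duplicates in 123 (0.541%). Whether the duplicates come from different plants is not stated. Array medians ran from 46.0 to 51.1 (Stw), and the bacterial control probe sets gave signals up to 9.6.

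Natural accessions are inbred lines collected at different sites, and their flowers differ in transcript levels through changes in the genes themselves, in the factors that regulate them, and through loss or gain of gene copies. Genes of specialized metabolism, defence and stress response are well-known examples of such variation. COR15A, for example, encodes a chloroplast protein that accumulates in the cold and protects membranes during freezing, while ISU1 encodes a mitochondrial scaffold protein on which iron-sulphur clusters are assembled. In whole flowers, fewer cells of a type and less RNA per cell cannot be told apart.

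**Figure D1:**
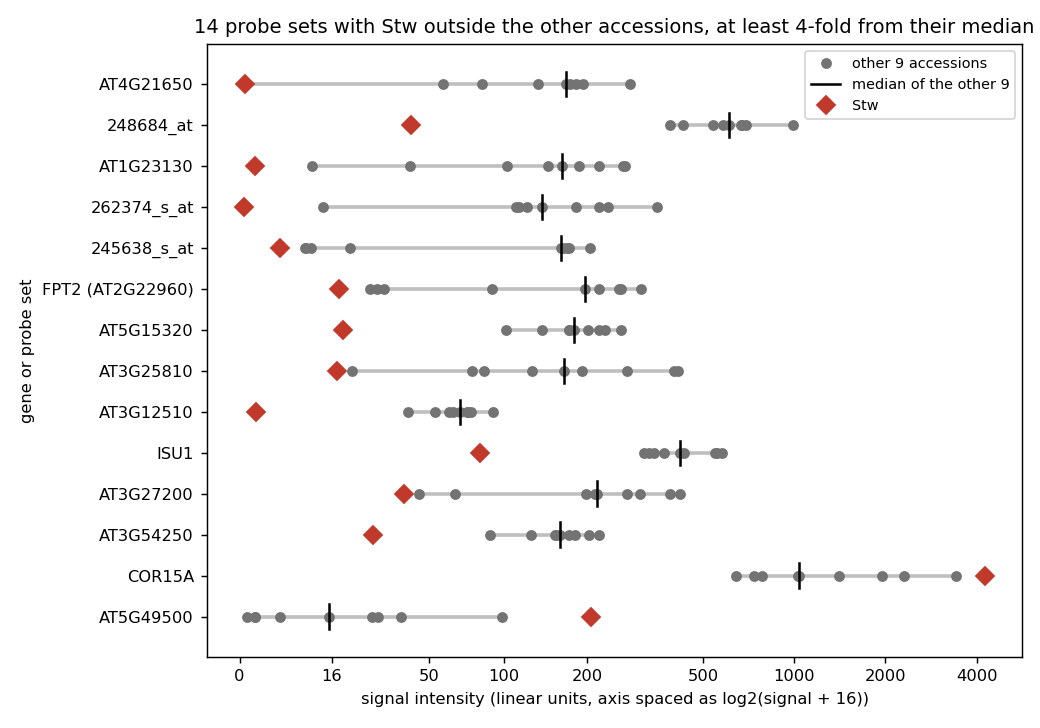
Signals of the 14 probe sets in the 10 accessions, on an axis spaced as log2(signal + 16). Diamonds mark Stw, circles the other 9 accessions (Col-0 and C24 as means of 2 arrays) and short black bars the median of the 9. In 5 of the 12 lower probe sets the 9 circles lie within 4-fold of each other, and in the other 7 at least 1 circle comes within 2-fold of Stw.

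The 12 lower probe sets fell into 2 kinds by what the other accessions did on the scale of signal + 16. In 5 of them the 9 other accessions lay within 4-fold of each other and Stw stood at least 2-fold below the nearest. In the other 7 the 9 accessions themselves spread over at least 4-fold, and at least 1 of them came within 2-fold of Stw. Each difference from the median was larger than the gap between the duplicate arrays of C24 and of Col-0 for the same probe set, which reached at most 1.39 on the log2 scale. The rule nearly fixes this in advance, since it asks for at least 4-fold. Duplicates were that far apart in 0.541% of all probe sets in C24 and 0.0352% in Col-0. The distance to the nearest accession exceeded the gaps of both duplicate pairs in 7 of the 14 probe sets.

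The widest gap to the nearest accession was that of the probe set 248684_at, for which the gene table used here lists no gene. Its signal was 41.7 in Stw, while the other accessions ran from 385.4 in Cvi over a median of 610.7 to 994.0 in RLD. Stw was thus 10.9-fold below the median (log2 difference -3.44) and 2.80 log2 units below Cvi. The duplicates differed by 0.47 in C24 and 0.27 in Col-0. On the scale of signal + 16 it was the single probe set at least 4-fold from every other accession.

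ISU1 (AT4G22220), the iron-sulphur cluster scaffold, is a protein-coding gene (chromosome 4, 11759103 to 11761057, TAIR10.1 as for all positions here). Its signal was 81.1 in Stw and ran from 314.1 in Rsch over a median of 418.3 to 577.9 in RLD (log2 difference -2.16). The other 9 accessions spanned 1.80-fold on the scale of signal + 16, so that Stw alone was low. The duplicates gave 316.1 and 340.2 in C24 and 433.1 and 431.3 in Col-0.

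The remaining genes of this kind are listed by RefSeq as protein-coding and carry no symbol there, so they are given by locus. AT5G15320 (chromosome 5, 4977470 to 4979076) had 18.8 in Stw and 101.4 in Sap to 263.5 in Ws, with a median of 180.0 (log2 difference -2.49). Its Col-0 duplicates, 112.5 and 234.6, were 0.96 apart on the log2 scale, less than the 1.75 between Stw and Sap. AT3G54250 (chromosome 3, 20082046 to 20084762) had 27.6 in Stw, against 88.8 in C24 to 221.2 in RLD and a median of 160.1 (log2 difference -2.01). Stw was below every other accession in both, but AT3G54250 passed the 4-fold limit narrowly and missed it without Da, RLD, Rsch or Ws (log2 difference -1.99 each time) and narrowly against the mean of the accessions.

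AT3G12510 (chromosome 3, 3967058 to 3967822) had a signal of 2.1 in Stw, under the level of the bacterial controls. The other accessions gave 40.5 in Ws to 90.7 in Da, with a median of 67.7 (log2 difference -2.21), all above that level. The fold of such dim signals depends on the constant added, and the log2 difference ran from -4.47 with a constant of 1 to -0.99 with 64. The duplicates agree within 0.10 in C24 and 0.02 in Col-0.

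In the second kind, at least 1 other accession came within 2-fold of Stw on the scale of signal + 16. For AT1G23130 and 262374_s_at this rests on the added 16. There Stw was under the bacterial controls, and the signal of the nearest accession (11.6 in Da and 14.0 in Cvi) was 5.8-fold and 28.0-fold that of Stw. With Stw so dim, these folds have no firm size either. AT4G21650 (chromosome 4, 11501162 to 11504739) had 0.7 in Stw and 0.8 in Da, both under the bacterial controls, so that the order of Stw and Da carries no information. The other 8 accessions were between 57.4 in Cvi and 281.2 in Ws. AT1G23130 (chromosome 1, 8200321 to 8201246) had 2.0 in Stw, 11.6 in Da and 41.2 in Sap, and up to 272.1 in RLD (median 163.6, log2 difference -3.32). The Stw signal of AT1G23130 was also under the controls, and its difference ran from -5.78 with a constant of 1 to -1.79 with 64. Da was the accession nearest to Stw in both genes.

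AT3G25810 (chromosome 3, 9430762 to 9434000) had 17.2 in Stw and 21.1 in Rsch, while RLD followed with 75.2 and C24 was highest with 411.0 (log2 difference from the median -2.45). Its C24 duplicates, 220.0 and 602.0, were the farthest apart of all 14 probe sets, yet both lay far above Stw. AT3G27200 (chromosome 3, 10043522 to 10044539) had 38.9 in Stw, 45.3 in Cvi and 64.4 in Ws, and 199.2 in C24 to 419.3 in RLD (log2 difference -2.09). For both genes Stw and the nearest accession differed by 0.16 on the log2 scale, less than the gap between duplicates. Against the mean of the accessions AT3G27200 fell short of 4-fold (-1.96).

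Both remaining probe sets without a single listed gene end in _s_at, a suffix that marks probes shared by several transcripts, and related genes can add to their signal. 262374_s_at had 0.5 in Stw, 14.0 in Cvi and 110.9 in Sap to 348.6 in C24 (log2 difference -3.22). The Stw signal was under the bacterial controls, and the difference of 262374_s_at ran from -6.54 with a constant of 1 to -1.65 with 64. 245638_s_at had 5.6 in Stw and was also low in C24 (10.2), Sap (10.4), Da (11.4) and Cvi (20.5), while Col-0, Laer, RLD, Rsch and Ws gave 162.5 to 205.1. The other 9 accessions thus formed a low and a high cluster for 245638_s_at. Stw was under the bacterial controls (up to 9.6), and C24, Sap and Da were just above them. The place of Stw under the low cluster therefore carries little information. 245638_s_at no longer met the rule when C24 was read from the first array alone, whose signal was 5.4. Nor did it without Laer, RLD, Rsch or Ws (log2 difference -1.90 without each of them in turn), or against the mean of the accessions (-1.93).

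FPT2 (AT2G22960, chromosome 2, 9770894 to 9772977) is the flavonol acyltransferase gene that the study followed, and its sequencing gave Stw-0 an allele like that of Col-0, which lacks several exons, with a further short deletion. Its signal of 17.6 in Stw was the lowest of the 10 accessions. Ws (26.5), Sap (28.9) and Col-0 (27.8 and 34.8 on its arrays) came next, then Laer with 89.8, and the 5 producers lay between 197.5 in Da and 307.9 in RLD. Stw was 0.34 log2 units below Ws, which is more than the gap between the Col-0 duplicates (0.21) and less than that between the C24 duplicates (0.48). The difference from the median (-2.67) was taken against 5 producers and 4 non-producers, and among non-producers Stw was not set apart by 2-fold from Ws, Sap and Col-0. Against the mean of the accessions FPT2 fell short of 4-fold (-1.97). Of the 7 genes listed for this SCPL cluster, FPT2 alone has a probe set tied to a single locus in the gene table used here. The others were not examined, although the study reported transcripts of the nearby FPT1 from its arrays.

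COR15A (AT2G42540, chromosome 2, 17710441 to 17712330) was 1 of the 2 probe sets higher in Stw. Its signal was 4259.7 in Stw and ran from 644.9 in Laer over a median of 1043.8 to 3426.7 in Sap (log2 difference 2.01). Sap came within 0.31 log2 units of Stw, as close as the Col-0 duplicates (2549.3 and 2051.9, 0.31 apart). COR15A fell short of 4-fold under quantile normalization (log2 difference 1.94) and median centring (1.90), without Cvi, Da, Laer, Ws or C24 (1.80 each time), and against the mean of the accessions (1.73).

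The other cold-response genes did not follow COR15A to the same extent. COR15B, its neighbour and close relative, had 888.5 in Stw, near the median of 880.0 and within the range of 415.4 to 1413.6 (log2 difference 0.01). The dehydrin gene LTI30 had 185.6 in Stw, exceeded by 269.2 in Da (log2 difference 0.73). COR47, another dehydrin gene, had 1482.9, inside the range of 949.3 to 1786.2 (log2 difference 0.23). Of the 15 genes listed, 4 were measured, and the 3 besides COR15A, which the rule had selected, had a median log2 difference of 0.23 against 0.03 over all probe sets.

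**Figure D2:**
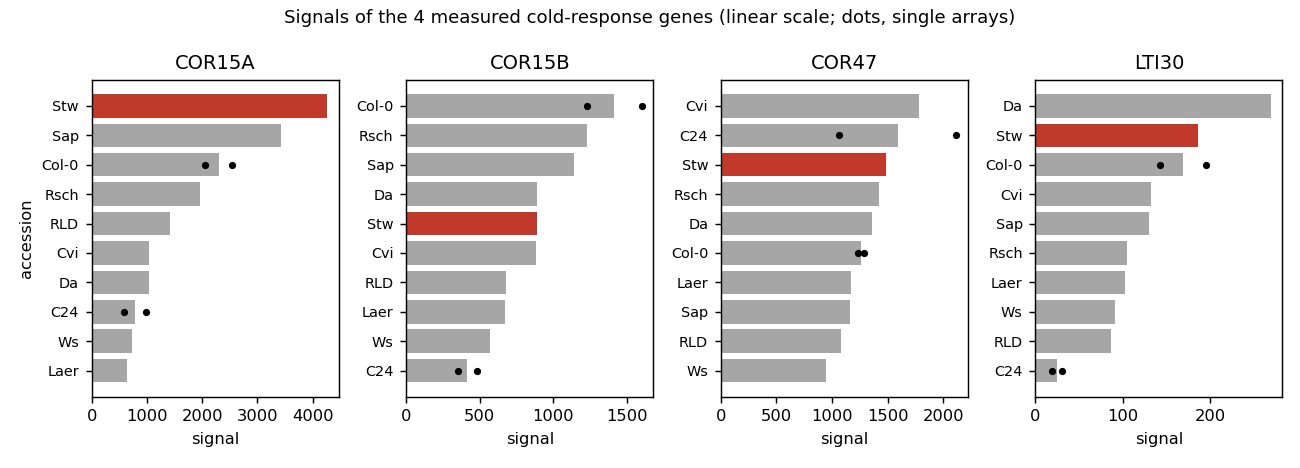
Signal intensity (linear) of the 4 measured genes of the cold list in each accession, ordered by level, with Stw in red and dots for the single arrays of Col-0 and C24. Stw is highest for COR15A with 4259.7, and for COR15B its 888.5 sits in the middle of the accessions.

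AT5G49500 (chromosome 5, 20077304 to 20080329), the other higher probe set, had 206.3 in Stw. The other accessions gave 0.9 in RLD over a median of 15.2 to 97.9 in Ws (log2 difference 2.83). In 4 of them (RLD, Rsch, Sap and Da) the signal did not exceed that of the bacterial controls. Stw was 0.96 log2 units above Ws, and the duplicates of C24 and Col-0 were within 0.13 of each other.

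The members just inside the limit were AT3G54250 (-2.01) and COR15A (2.01). Just outside it, AT5G37980 had 136.5 in Stw against at most 59.8 in RLD (log2 difference 1.81), AT1G76960 had 43.1 against at most 5.8 (1.80) and AT5G02140 had 83.9 against at most 25.9 (1.79). On the lower side 246339_at, which has no listed gene, had 173.0 in Stw and 209.1 in Rsch (-1.95). AT3G26070, whose probe set ends in _s_at and can take up related genes, had 106.0 in Stw and 109.1 in Da (-1.93). The probe set 257714_at, also without a listed gene, had 35.0 in Stw and 40.0 in Rsch (-1.88). Each of these was outside the range of the other accessions and fell short of 4-fold on the scale of signal + 16. For AT1G76960 all 9 other accessions were under the bacterial controls, and its log2 difference was 4.46 with a constant of 1.

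A further 13 probe sets were at least 4-fold from the median but inside the range of the others, so that Stw shared its level with another accession, 10 of them lower and 3 higher. The genes named here among these were chosen after their values were seen. Stw and Ws were low together for SCPL43, a serine carboxypeptidase-like gene (28.9 and 24.4, the others 139.2 or more), and for HTB11, a histone H2B gene (13.9 and 13.7, the others 116.2 or more). These bounds take C24 as a mean, and its second array alone gave 67.8 for SCPL43 and 110.1 for HTB11. AT3G28220 had 25.8 in Stw, 4.8 in C24 and 46.1 in Ws, while Cvi reached 755.8. AT2G15560 had 490.4 in Stw and was also high in Cvi (699.3), Rsch (400.6) and Ws (352.7), but at most 68.4 elsewhere. AOP3, a dioxygenase gene of aliphatic glucosinolate synthesis, had 190.6 in Laer and 91.2 in Stw, while the other 8 accessions did not exceed the bacterial controls.

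**Figure D3:**
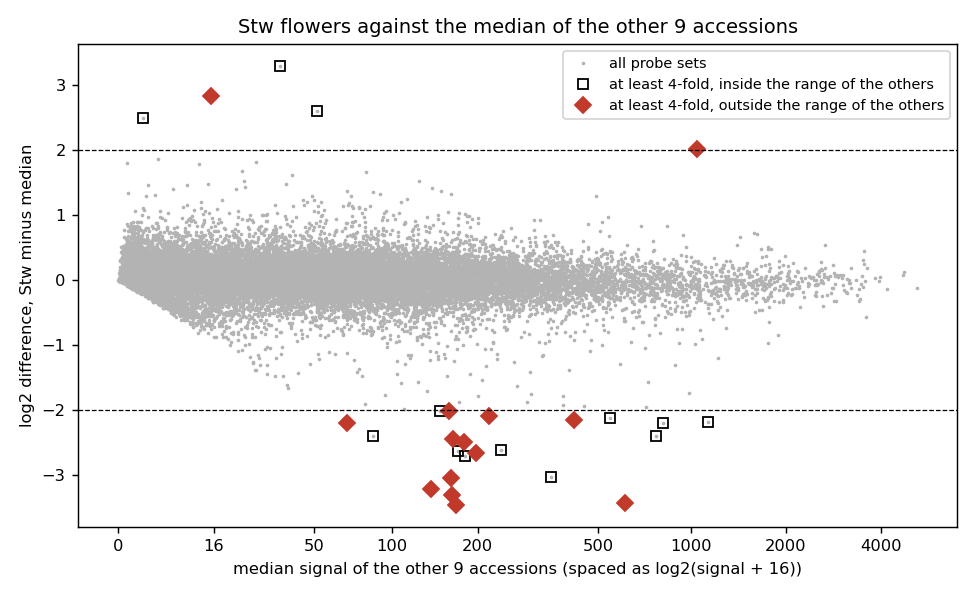
Log2 difference of Stw from the median of the other 9 accessions (vertical axis, on log2(signal + 16)) against that median signal (horizontal axis), 1 point per probe set. Red diamonds are the 14 probe sets outside the range of the others, open squares the 13 inside it, and dashed lines the 4-fold limit. Of the 27 marked probe sets, 22 lie below and 5 above.

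Each accession in turn was set against the other 9 by the same rule. Stw, with 14 probe sets, lay within the span of 6 in RLD to 38 in C24, whose duplicates were the ones 4-fold apart in 123 probe sets. Stw and RLD had the fewest higher probe sets, 2 each, where the other accessions had 4 in Rsch (0.0176%), 7 in Sap (0.0308%), 10 in Col-0 and Da (0.044%), 11 in Cvi and Laer (0.0484%), 16 in Ws (0.0703%) and 27 in C24 (0.119%). In lower probe sets Stw, Cvi and Laer each had 12, against 2 in Col-0, 4 in RLD (0.0176%), 7 in Ws (0.0308%), 9 in Sap (0.0396%), 10 in Da (0.044%) and 11 in C24 and Rsch (0.0484%). The probes of ATH1 follow the Col-0 sequence, and Col-0 had 10 higher and 2 lower. The part of sequence differences from Col-0 in the low signals of Stw was not tested. These counts rest on 1 array for all but Col-0 and C24, and the differences between them were not tested.

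**Figure D4:**
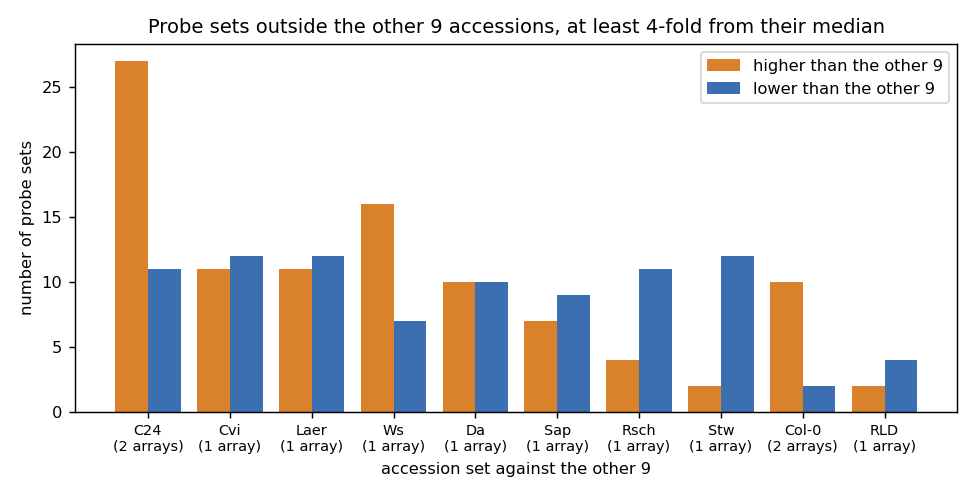
Number of probe sets (vertical axis) in which each accession lay outside the range of the other 9 and at least 4-fold from their median, higher and lower counted apart. Stw has 2 higher and 12 lower, and the number of arrays behind each accession is given under its name.

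The 11 members with a single locus, all protein-coding, were spread over the 5 chromosomes, with 4 on chromosome 3, which holds 20.4% of the probe sets with a locus. No pair of them lay within 3 genes of each other. The nearest pair, AT4G21650 and ISU1, is 254 kb and 74 genes apart. Of 25 measured genes up to 3 places from a member, none was itself a member. Some of the 25 had no signal over 50 in any accession, where the added 16 narrows a fold. In Stw, 24 of the 25 were within 2-fold of the median, against 99.1% of all probe sets. The exception, AT4G21630, lies 2 genes from AT4G21650 and had 10.2 in Stw, below 22.5 in C24 to 107.8 in Da (log2 difference -1.29). Between them lies AT4G21640, which had 16.5 in Stw and at most 7.8 in the others, all of them under the bacterial controls.

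Of 332 loci in 23 lists of flower, pigment, glucosinolate, stress, defence and light genes, 57 had a probe set tied to a single locus. Only these are called measured, and FPT2 and COR15A were the 2 of them that met the rule. Stw was within 2-fold of the median for 51 of the 57 (89.5%), against 99.1% of all probe sets. Stw was the highest of the 10 accessions for 4 of them (COR15A, the flavonoid glucosyltransferase gene UGT78D2, the glucosinolate glucosyltransferase gene UGT74B1 and the tapetal receptor kinase gene EMS1), and for 10.7% of all probe sets. It was the lowest for 5 (FPT2, the heat-shock gene listed as HSP22, SPT of carpel development, AGL24 of flowering time and the antenna gene LHCB4.1), and for 7.38% of all. UGT78D2 had 158.6 in Stw against at most 136.6 in Ws (log2 difference 0.23), and LHCB4.1 had 1893.4 against at least 2016.9 in Rsch (-0.27). UGT74B1 (151.5 against 149.3 in Laer) and EMS1 (161.8 against 158.4 in Ws) were highest by small margins. SPT (74.0) and HSP22 (9.8) were close to Rsch (75.9 and 11.2). AGL24 had 1.4 in Stw, under the bacterial controls, as were C24, Cvi and Sap, so its order carries no information.

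The 9 lists with at least 3 measured genes had median log2 differences from -0.20 (phenylpropanoid and sinapate genes) to 0.64 (anthocyanin and tannin genes), against 0.03 over all probe sets. All 4 measured anthocyanin and tannin genes were above the median. DFR, dihydroflavonol reductase, had 52.1 in Stw, with a median of 28.1 and a highest value of 82.5 in Laer. BAN, anthocyanidin reductase, had 18.5 in Stw, with a median of 6.0 and a highest value of 29.1 in Da. None of the 4 left the range of the other accessions. The median of the list ran from 1.17 with a constant of 1 to 0.27 with 64, and for BAN and UGT75C1 the median accession (6.0 and 6.7) lay under the bacterial controls. A shared direction was not particular to the anthocyanin and tannin list. All 5 measured tapetum and anther genes (list median 0.37) and all 4 cold genes, COR15A included (0.48), were also above the median.

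The summed signals of the marker lists of pollen, tapetum and green tissue lay within the range of the other accessions. EMS1 and LHCB4.1 as single genes did not, each by less than the gap between its duplicates in C24 (0.41 and 0.33) and in Col-0. The 5 measured pollen genes summed to 122.0 in Stw (65.5 in Cvi to 199.0 in Da), the 5 of the tapetum and anther to 1660 (858.0 in Rsch to 1910 in C24) and the 3 of green tissue to 6130 (5270 in Col-0 to 7450 in Laer). Of the tapetal genes, AMS had 143.3 in Stw, with a median of 53.5 and 183.9 in C24 (log2 difference 1.20). The 2 measured genes of the organ identity list, SPT and SPL, summed to 80.0 in Stw, under the 91.5 of Cvi, and SPL (6.0), ANX1 (8.4) and BZIP34 (1.0) did not exceed the bacterial controls. The seed markers and the organ identity genes AP1, AP3, PI and AG were not analysed here. The part of these markers in the differences of the members was not tested.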

How the data were processed

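Floral total RNA of 10 accessions was hybridized to 12 Affymetrix ATH1 arrays. The authors deposited signal intensities that are not log-transformed, scaled so that each array has a 2% trimmed mean of 100.0. The summarization software is not given in the sources used here. The number of arrays limits the precision, and Stw has 1.

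The 64 AFFX control probe sets were left out, Col-0 and C24 duplicates were averaged as signals, and log2(signal + 16) was taken. Of 22746 probe sets, 13436 have 1 locus in the platform's gene table and RefSeq (TAIR10.1). The other 9310 were not given a gene, so a gene not called measured may still have probes on the array. Calculations used Python 3.11.15 and pandas 2.3.3, and the rule was tested on simulated data. No p-values were computed, since Stw has 1 array. Genes named are the members, those just outside the limit, list members and neighbours of members up to 3 genes away, and 4 genes at least 4-fold from the median inside the range, chosen after their values were seen. Members and gene lists were chosen with earlier results of these data known. Alternatives covered the constant, scaling, limits, a signal filter, probe set types and omission of each array. Promoter motifs were not searched here.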

Additional observations from a re-analysis of the deposited data

Results flagged for a closer look

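For each of the 14 members, the 9 other accessions were checked for 1 value far from the rest. The check used linear signals and not log2(signal + 16), on which it was not made. AT5G49500 had 97.9 in Ws, where the next accession had 37.5 and the lowest 0.9, a gap of 0.622 of the range. Chance gives about 1 in 20 such checks for normally distributed values, which linear signals need not be.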

How the results depend on the processing

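The count of 2 higher and 12 lower probe sets depended most on the constant added to the signal and on the limit. It was 99 and 99 with a constant of 1, 0 and 1 with 64, 43 and 62 at 2-fold, 0 and 5 at 8-fold, and 0 and 1 when the nearest accession had to be 4-fold away. With the mean in place of the median it was 1 and 8. The higher count was 1 under quantile normalization, under median centring and without both C24 arrays, the last chosen after seeing the data, and COR15A was the probe set lost. Without 1 array the counts lay between 1 and 2 higher and between 11 and 14 lower, and 11 (without Ws) to 14 of the members were kept. The signs of the log2 differences of all 14 members held in 238 recomputed values. Since the rule places Stw beyond all 9 other accessions, most of these settings could not reverse a sign. Of the 238 values, 199 moved by no more than 0.29, an SD per array derived from the duplicates. The SD of the difference between duplicates was itself 0.49 in C24 and 0.33 in Col-0. Scaling moved the median of all probe sets from 0.03 to -0.03 at most. Signals under 9.6, the highest bacterial control, which 18.7% of the Stw probe sets did not exceed, have no order. No paired analysis was possible because the results come from no test.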
